A study of Homo sapiens with 4 samples.

Results

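Glycolysis enzymes were followed in LNCaP cells that overexpress CRYM, for 9 listed genes: HK2, ALDOA, TPI1, GAPDH, PGK1, PGAM1, ENO1, PKM and LDHA. In each library a gene was taken as the row that carries its symbol on a main chromosome. Failing that, it was the row whose locus overlaps the known hg19 span by at least 0.4 of the union of both. This gave 8 of the 9 genes in all 4 libraries, out of 52294 joined loci. Of the 32 rows, 4 were taken by name (ENO1 in 3 libraries and HK2 in 1) and 28 by position, and for 6 genes the position was identical in every library. PGK1 had no row by this rule, and the locus that holds it is described separately.

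LNCaP is an established human prostate cancer line. CRYM codes for mu-crystallin, which binds thyroid hormone in the cytosol. The comparison asks which transcripts differ when the cells are made to express CRYM. In 2 libraries the cells had received an expression vector for CRYM, and in the other 2 the empty vector. Both groups were grown in medium with 10% serum and 1% antibiotic, at passage 22. They were transfected transiently at 70 to 80% confluence in 6-well plates with 2500 ng of plasmid and 12 µL of lipid reagent. GFP was monitored, and RNA was taken after 48 h. The mRNA libraries were stranded and read as single reads of 50 bp. Transient transfection reaches a part of the cells, so each value averages cells with and without the plasmid. The samples of a group are called biological replicates without being tied to separate cultures, and a p-value then reflects no more than the spread among these particular samples.

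Glycolysis splits glucose into pyruvate and yields ATP and NADH in the cytosol. Hexokinase traps glucose, aldolase and triose phosphate isomerase make and interconvert triose phosphates, and the enzymes from GAPDH to pyruvate kinase turn these into pyruvate. Lactate dehydrogenase then reduces pyruvate to lactate and restores the NAD that GAPDH needs. Many of these genes are known targets of the transcription factors HIF-1 and MYC, which bind sites with the cores ACGTG or GCGTG and CACGTG.

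Because those binding sites are a textbook feature of this gene group, the bases before the transcription start were read from the RefSeq promoter table of GRCh38.p14. The windows shown are of ENO1, of the enzymes with the smallest (PKM) and the largest difference (HK2) between the groups, and of LDHA, which has several matches. Each holds 250 bases before the start, on the strand of the gene, and capitals mark ACGTG or GCGTG on either strand. The ENO1 window is chr1:8878687-8878936 (minus strand), that of LDHA is chr11:18394313-18394562 (plus strand, the first of 2 starts), that of HK2 is chr2:74833877-74834126 (plus strand, the first of 2 starts), and that of PKM is chr15:72231191-72231440 (minus strand).
ENO1: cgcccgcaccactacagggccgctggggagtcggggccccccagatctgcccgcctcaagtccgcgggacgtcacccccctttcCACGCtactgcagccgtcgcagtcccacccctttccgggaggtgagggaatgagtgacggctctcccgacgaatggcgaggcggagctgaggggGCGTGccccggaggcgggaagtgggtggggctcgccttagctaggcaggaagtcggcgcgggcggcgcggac
LDHA: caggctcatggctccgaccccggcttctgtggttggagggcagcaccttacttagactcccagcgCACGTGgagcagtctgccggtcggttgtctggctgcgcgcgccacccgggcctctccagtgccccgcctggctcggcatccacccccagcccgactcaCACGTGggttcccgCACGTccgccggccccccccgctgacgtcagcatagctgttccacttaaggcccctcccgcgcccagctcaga
HK2: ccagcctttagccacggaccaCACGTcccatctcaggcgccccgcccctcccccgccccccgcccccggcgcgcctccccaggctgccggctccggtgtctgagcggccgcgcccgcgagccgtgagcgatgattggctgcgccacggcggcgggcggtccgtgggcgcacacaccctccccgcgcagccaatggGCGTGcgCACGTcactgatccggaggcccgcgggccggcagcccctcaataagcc
PKM: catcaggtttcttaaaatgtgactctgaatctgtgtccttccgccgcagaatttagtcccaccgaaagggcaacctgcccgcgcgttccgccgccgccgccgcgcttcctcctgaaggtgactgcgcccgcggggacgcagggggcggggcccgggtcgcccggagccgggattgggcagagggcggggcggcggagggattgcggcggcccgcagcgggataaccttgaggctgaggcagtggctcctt

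ENO1 had GCGTG matches that begin 166 and 72 bases before the start. LDHA had 5 ACGTG matches at its first start, of which 4 lie in 2 copies of CACGTG, since that palindrome holds ACGTG on both strands. HK2 had ACGTG at 229 and 48 bases and GCGTG at 55 bases before its first start. All 9 listed genes have entries, 14 starts in total, and ACGTG or GCGTG occurred at 11 of these 14 starts (78.6%), against 43.2% of all 35116 promoters of the same length. ACGTG alone occurred at 64.3% of the 14 starts and at 18.5% of all promoters. CACGTG occurred at 28.6% of the 14 starts and at 6.34% of all promoters. The GC box GGGCGG, searched on both strands, occurred at 11 of the 14 starts (78.6%) and in 42.6% of all promoters. ACGTG or GCGTG was found for 7 of the 9 genes, and neither was found in the windows of PKM and PGAM1. The windows are on GRCh38.p14 and were not placed beside the hg19 loci. Whether each precedes the start used in these cells was not tested, so a lack of a match holds for the window only. Starts of 1 gene overlap or share sequence, and a match describes letters only. PGAM1, without a match, had a log2 difference (CRYM minus empty vector) of -0.71. GAPDH and TPI1, with matches, had -0.46 and -0.42. A link between matches and differences was not tested. The bases after the GAPDH start were not found in the GAPDH transcripts searched, so that window is less sure. From 53.2% to 76.8% of the bases in the 14 windows were G or C. The other promoters were not matched for this, so the shares do not separate these sites from base composition.

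The 8 measured glycolysis enzymes were all lower in the CRYM libraries than in the empty vector libraries, by 1.31-fold (PKM) to 2.16-fold (HK2). Each passed limma at a Benjamini-Hochberg adjusted p under 0.05 over 10096 tested loci, and 0 were higher. Of all tested loci 17.7% were called lower and 15.7% higher. On rescaling to the same total limma called 4 of the 8 lower, with 664 of all 10096 loci lower and 741 higher. With any 1 library left out (CRYM 1, CRYM 2, empty vector 1 or empty vector 2) the calls were lost at all tested loci. Both CRYM libraries lay below both empty vector libraries for each of the 8 genes, which was the case at 35.3% of all tested loci. Of the 767 tested loci with a mean of at least 100 FPKM, 39.9% were called lower and 9% higher. That range holds 7 of the 8 enzymes. Levels are in FPKM, a fragment count per transcript length and library size, and differences are of log2(FPKM + 1), CRYM minus empty vector, which understates changes at low levels. In these bulk samples fewer cells that express a gene and less RNA per cell cannot be told apart.

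**Figure D1:**
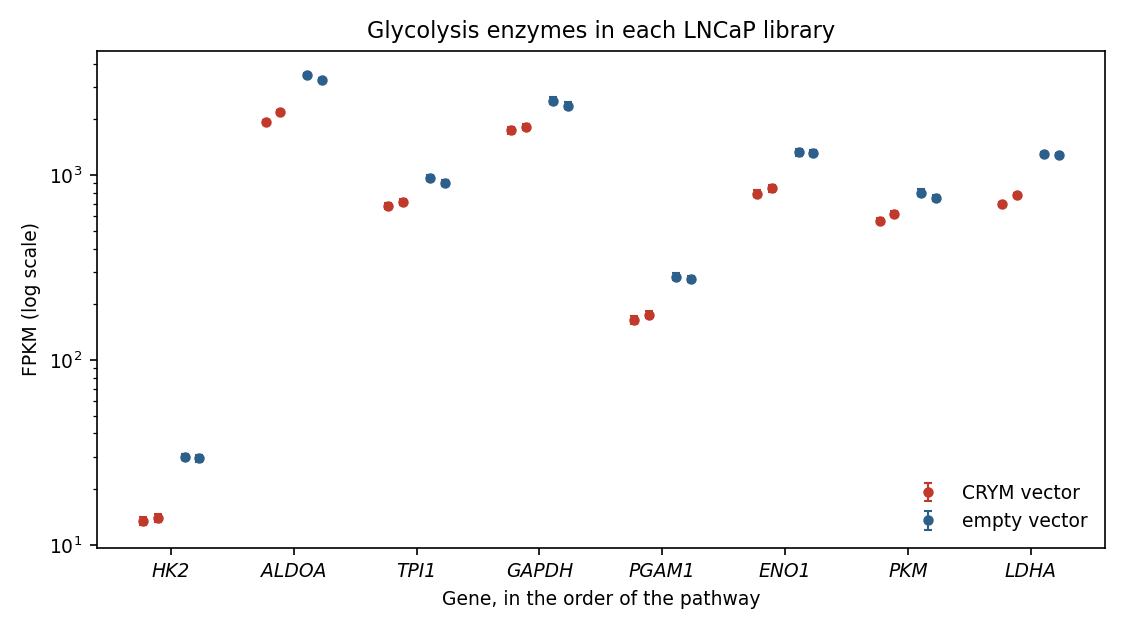
FPKM (log scale) of 8 glycolysis enzymes in the 2 CRYM vector libraries (red, left) and the 2 empty vector libraries (blue, right), with the deposited interval as an error bar. For each gene both red points lie below both blue points, from 13.4 and 14.0 against 29.9 and 29.3 FPKM for HK2 to 1941 and 2201 against 3458 and 3278 FPKM for ALDOA.

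HK2, the inducible hexokinase that commits glucose to the cell by phosphorylating it, had 13.4 and 14.0 FPKM in the CRYM libraries, against 29.9 and 29.3 FPKM in the empty vector libraries. The groups lay far apart relative to the gap within each. HK2 averaged 13.73 ± 0.405 FPKM in CRYM cells and 29.6 ± 0.411 FPKM in empty vector cells (SD, n = 2 each). Its log2 difference was -1.05 (SE 0.0364, limma adjusted p = 0.00493). It was the lowest expressed of the 8 genes and had the largest difference. Its locus is chr2:75061108-75120486 in hg19 in 3 libraries and ends at 75120586 in empty vector library 1.

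ALDOA, the aldolase that cleaves fructose bisphosphate, was the highest of the 8, with 1941 and 2201 FPKM in the CRYM libraries and 3458 and 3278 FPKM in the empty vector libraries. Its CRYM libraries differed more from each other than those of the other enzymes did in FPKM, without reaching the empty vector values. The means were 2071 ± 184 and 3368 ± 127 FPKM (CRYM and empty vector, SD, n = 2 each), 1.63-fold lower in CRYM cells, with a log2 difference of -0.70 (SE 0.0823, limma adjusted p = 0.019). ALDOA lost the limma call on rescaling to the same total (adjusted p = 0.0588) and with quantile normalization (0.0543). Its locus, chr16:30064411-30081778, is 2.83 times as long as the RefSeq gene, whereas the loci of the other 7 enzymes are 1.00 to 1.15 times as long.

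TPI1, which interconverts the triose phosphates, had 680.3 and 714.4 FPKM in the CRYM libraries and 964.9 and 903.8 FPKM in the empty vector libraries. Its means were 697.3 ± 24.1 FPKM in CRYM cells and 934.3 ± 43.2 FPKM in empty vector cells (SD, n = 2 each). The 1.34-fold lower level in CRYM cells is a log2 difference of -0.42 (SE 0.0513, limma adjusted p = 0.0202). TPI1 lost the limma call on rescaling to the same total (adjusted p = 0.0811) and with the named loci and the enzymes alone (0.0514). TPI1 (chr12:6976283-6980112) lies on the same chromosome arm as GAPDH (chr12:6643093-6647537). Their differences were of like size, and so was that of PKM on chromosome 15 (log2 difference -0.39).

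GAPDH, which oxidizes glyceraldehyde phosphate and makes NADH, had 1743 and 1820 FPKM in the CRYM libraries and 2523 and 2372 FPKM in the empty vector libraries. The groups did not overlap in this gene, which is often used to normalize expression. It averaged 1782 ± 54.8 FPKM in CRYM cells and 2448 ± 107 FPKM in empty vector cells (SD, n = 2 each), 1.37-fold lower, with a log2 difference of -0.46 (SE 0.0488, limma adjusted p = 0.0171). GAPDH lost the limma call on rescaling to the same total (adjusted p = 0.0723) and with quantile normalization (0.0759), where its log2 difference was -0.27.

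An antisense locus inside GAPDH, RP5-940J5.9 (chr12:6646960-6647536), was listed at 2387 and 2504 FPKM in the CRYM libraries and at 2828 and 3020 FPKM in the empty vector libraries. It was also lower in CRYM cells, by a log2 difference of -0.26 (SE 0.0522, limma adjusted p = 0.0466). Its FPKM was above that of GAPDH in all 4 libraries. Use of the strand in quantification was not given in the sources used here, so reads of GAPDH and of this antisense locus cannot be told apart.

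PGK1 makes the first ATP of the pathway and follows GAPDH. The span of PGK1 is held by a locus on the X chromosome (chrX:77320685-77384793) that is 2.56 times as long as the RefSeq gene. It overlapped the span by 0.343 of the union, just under the minimum of 0.4, while the smallest overlap among the accepted enzymes was 0.721 (GAPDH). That locus was listed at 818.6 and 866.2 FPKM in the CRYM libraries and at 1749 and 1699 FPKM in the empty vector libraries, a level 2.05-fold lower in CRYM cells (log2 difference -1.03, SE 0.042, limma adjusted p = 0.00571). How much of it is PGK1 was not tested, and it enters no count of enzymes here.

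PGAM1, which moves the phosphate of phosphoglycerate, had 164.5 and 175.5 FPKM in the CRYM libraries and 281.6 and 274.3 FPKM in the empty vector libraries. It stood well below the other enzymes of the lower pathway in level, in both groups. The means were 170 ± 7.82 and 278 ± 5.14 FPKM (CRYM and empty vector, SD, n = 2 each), 1.64-fold lower in CRYM cells, with a log2 difference of -0.71 (SE 0.0446, limma adjusted p = 0.00866). Its locus is chr10:99185917-99193198, and no other listed locus overlaps it.

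ENO1, the enolase that makes phosphoenolpyruvate, had 792.3 and 848.0 FPKM in the CRYM libraries and 1324 and 1316 FPKM in the empty vector libraries. The empty vector libraries were close to each other, and both CRYM libraries were well below them. The log2 difference was -0.69 (SE 0.0443, limma adjusted p = 0.00885). Within its locus (chr1:8921061-8939308) the intronic transcript ENO1-IT1 (chr1:8935847-8938066) was listed at 1.23 and 1.52 FPKM in the CRYM libraries and at 2.13 and 2.04 FPKM in the empty vector libraries. ENO1-IT1 did not pass (log2 difference -0.38, limma adjusted p = 0.0656), though its groups did not overlap either.

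PKM, the pyruvate kinase that makes pyruvate and ATP, had 566.8 and 618.6 FPKM in the CRYM libraries and 801.6 and 752.5 FPKM in the empty vector libraries. It was the enzyme with the smallest difference. It averaged 592.7 ± 36.6 FPKM in CRYM cells and 777 ± 34.7 FPKM in empty vector cells (SD, n = 2 each), with a log2 difference of -0.39 (SE 0.0654, limma adjusted p = 0.0337). The call was lost in limma without the filter on low FPKM (adjusted p = 0.0756), with the named loci and the enzymes alone (0.0746) and on rescaling to the same total (0.118). The values do not separate its splice forms PKM1 and PKM2. Its locus ends at 72524164 on chromosome 15 and starts at 72491368 to 72491370, depending on the library.

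LDHA, which reduces pyruvate to lactate, had 694.9 and 778.9 FPKM in the CRYM libraries and 1299 and 1287 FPKM in the empty vector libraries. As for ENO1, the empty vector libraries lay close together. The means were 736.9 ± 59.4 and 1293 ± 8.63 FPKM (CRYM and empty vector, SD, n = 2 each), 1.75-fold lower in CRYM cells, with a log2 difference of -0.81 (SE 0.0693, limma adjusted p = 0.0126). Inside its locus (chr11:18415935-18429972) the intronic transcript AC084117.3 (chr11:18427156-18428278) ran the other way without passing, at 3.0 and 3.11 FPKM in the CRYM libraries and 1.85 and 2.64 FPKM in the empty vector libraries (log2 difference 0.33, limma adjusted p = 0.2).

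The sizes of the difference were not alike over the 8 genes. The 95% interval of HK2 ran from -1.169 to -0.941, below the intervals of TPI1 (-0.582 to -0.261), GAPDH (-0.61 to -0.305) and PKM (-0.596 to -0.186), though the difference between genes was not itself tested. The intervals of ALDOA, PGAM1, ENO1 and LDHA overlapped each other. That of HK2 overlapped those of ALDOA (-0.962 to -0.446) and LDHA (-1.03 to -0.595), and lay below those of PGAM1 and ENO1. Over the 8 enzymes the median log2 difference was -0.695, beside 0.0109 over all tested loci. Abundant loci as a class were also lower: the 767 tested loci with a mean of at least 100 FPKM had a median of -0.159, and 39.9% of them were called lower and 9% higher. A difference at least as low as that of PKM was seen at 13.7% of all tested loci and at 20.5% of those of at least 100 FPKM.

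**Figure D2:**
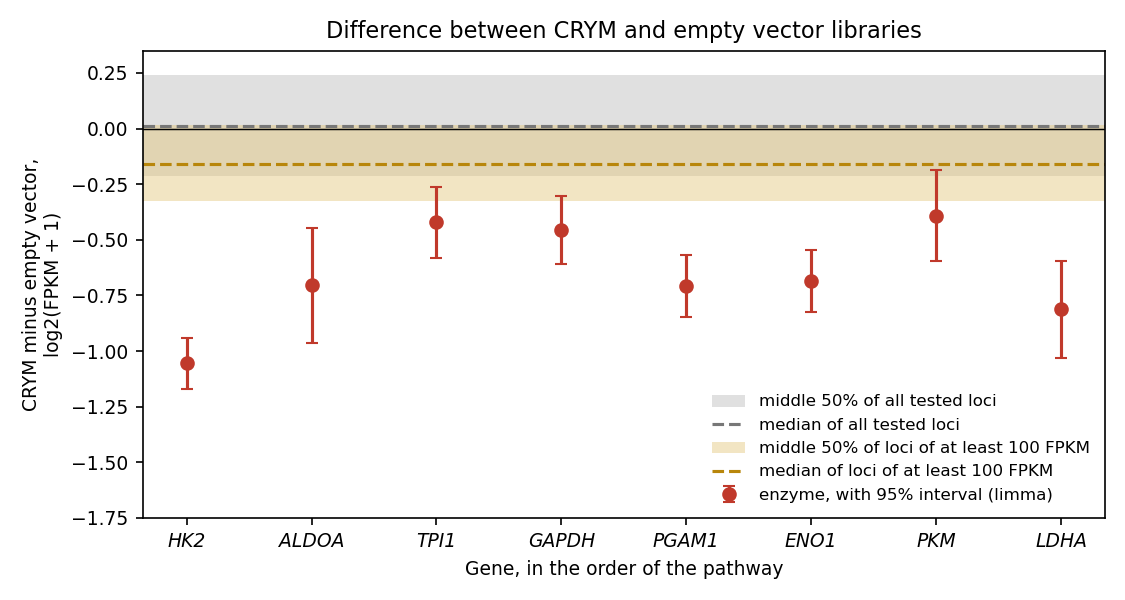
Difference in log2(FPKM + 1), CRYM minus empty vector, for the 8 enzymes with the 95% interval from limma, over bands for the middle 50% and dashed lines for the median of all tested loci (0.0109) and of loci of at least 100 FPKM (-0.159). All 8 points lie below both bands, while the interval of PKM reaches -0.186, inside them. The intervals of TPI1 (to -0.261) and GAPDH (to -0.305) reach into the band of loci of at least 100 FPKM, which begins at -0.325.

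**Figure D3:**
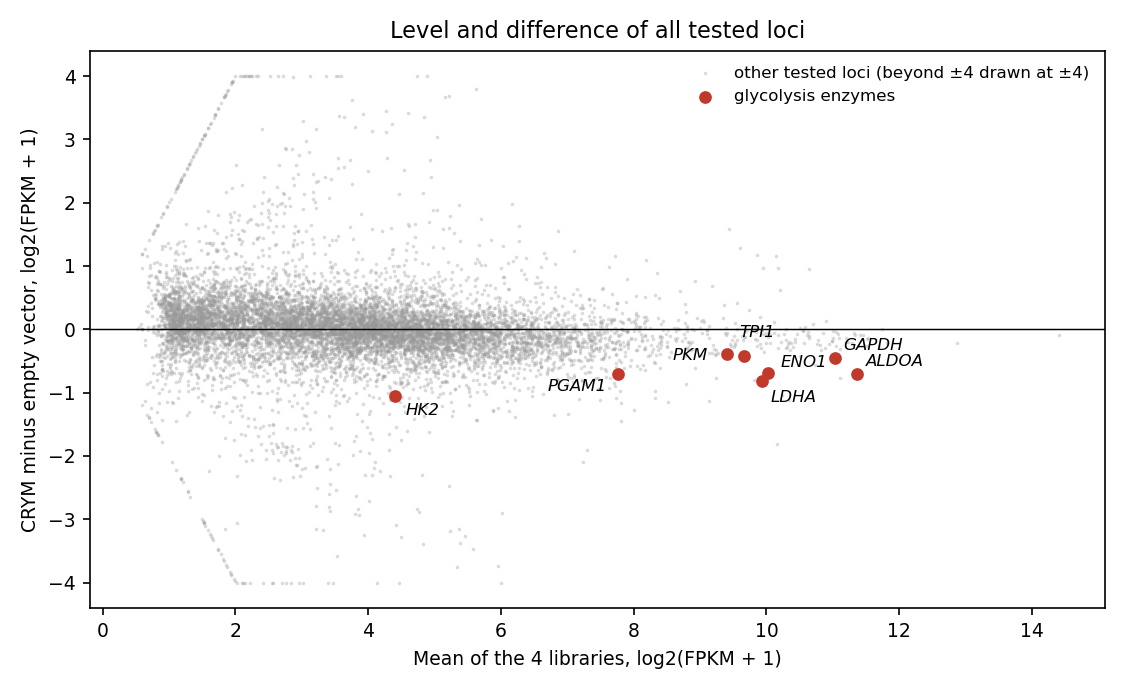
Mean level over the 4 libraries against the CRYM minus empty vector difference, both in log2(FPKM + 1), for the tested loci (grey) and the 8 enzymes (red). Apart from HK2 the enzymes lie at the abundant end, and all 8 lie below 0, where the 767 loci of at least 100 FPKM also have their median (-0.159).

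The order of the FPKM levels was the same in all 4 libraries: ALDOA, GAPDH, ENO1, LDHA, TPI1, PKM, PGAM1 and HK2. Neighbours in that order did not overlap within a group, except LDHA and TPI1, whose CRYM libraries spanned 694.9 to 778.9 and 680.3 to 714.4 FPKM. By mean FPKM 7 of the enzymes lay at or above percentile 97 of the tested loci, and HK2 at percentile 66.7. Summed FPKM of the 8 enzymes was 6596.1 and 7170.9 in the CRYM libraries and 10682.5 and 10212.9 in the empty vector libraries. That sum made up 1.238% and 1.462% of the total FPKM of the tested loci in the CRYM libraries, and 2.024% and 1.966% in the empty vector libraries.

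Within the sum the enzymes shifted against each other. LDHA made up 10.5% and 10.9% of the 8 genes' summed FPKM in the CRYM libraries and 12.2% and 12.6% in the empty vector libraries. GAPDH made up 26.4% and 25.4% in the CRYM libraries and 23.6% and 23.2% in the empty vector libraries. Set against GAPDH in the same library, LDHA was at 0.399 and 0.428 in the CRYM libraries and 0.515 and 0.542 in the empty vector libraries. ENO1 was at 0.455 and 0.466 of GAPDH in the CRYM libraries and 0.525 and 0.555 in the empty vector libraries. HK2, ALDOA and PGAM1 were also lower relative to GAPDH in both CRYM libraries than in either empty vector library. PKM was at 0.325 and 0.34 of GAPDH in the CRYM libraries and 0.318 and 0.317 in the empty vector libraries, so it was slightly higher relative to GAPDH, as was TPI1. These ratios show unequal change among the enzymes and were not tested. Reads of GAPDH and of the antisense locus inside it cannot be told apart, and that locus had the higher FPKM in every library. The ratios to GAPDH and the shares of the sum thus depend on how those reads were divided. Whether PKM and TPI1 would also be higher relative to GAPDH under another division was not tested.

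The enzyme whose pattern over the 4 libraries lay nearest to that of ENO1 was PGAM1, at a Euclidean distance of 0.0283 in centred log2(FPKM + 1), followed by ALDOA (0.0776) and LDHA (0.134), and HK2 was farthest (0.369). Of all tested loci 0.0396% lay nearer to ENO1 than PGAM1 did, and 0.426% nearer than ALDOA. Among 802 named protein-coding loci outside the list, the nearest were SGK223 (0.0464), GSTA2 (0.0543) and C17orf96 (0.0605). Their levels were far lower than that of ENO1. SGK223 had 0.484 and 0.555 FPKM in the CRYM libraries and 1.53 and 1.5 in the empty vector libraries, GSTA2 had 1.05 and 1.11 against 2.46 and 2.39, and C17orf96 had 3.81 and 4.34 against 6.90 and 7.18. In FPKM they were lower in CRYM cells by 2.92-fold (SGK223), 2.25-fold (GSTA2) and 1.73-fold (C17orf96), against 1.61-fold for ENO1. The likeness thus holds for log2(FPKM + 1), which understates changes at low levels, and not for the fold. SGK223 reached the 1 FPKM needed for testing only in the empty vector libraries. Over only 4 libraries such likeness describes the group difference on that scale and the gaps within groups.

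Processed copies of these genes bear on how reads were divided, because short reads from a gene and its near-identical copy can be exchanged. The files name 81 such copies, of which 79 were measured, 3 were tested, and 27 were listed at 0 in every library. All 3 tested are copies of LDHA. LDHAP4 (chr9:14921335-14922332) had 20.6 and 22.3 FPKM in the CRYM libraries and 41.9 and 41.5 FPKM in the empty vector libraries, a log2 difference of -0.93 (SE 0.0514, limma adjusted p = 0.00726). LDHAP5 was lower as well (log2 difference -0.52, limma adjusted p = 0.0335), while LDHAP3, with a log2 difference of -0.61, did not pass (limma adjusted p = 0.0522). LDHAP3 reached the 1 FPKM needed for testing only in the empty vector libraries (1.84 and 1.46 FPKM, against 0.619 and 0.864 FPKM in the CRYM libraries). It was thus tested only through the group where it was higher, and its direction adds no support. The copies of LDHA summed to 22.9 and 24.8 FPKM in the CRYM libraries and to 46.9 and 45.6 FPKM in the empty vector libraries, small beside LDHA itself. The 49 measured copies of GAPDH summed to 2.2 and 1.72 FPKM in the CRYM libraries and to 1.78 and 1.68 FPKM in the empty vector libraries. Each of the 9 genes has at least 1 named copy, and their values are uncertain to the extent that such copies took or gave reads.

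Few other genes of sugar metabolism carry a name in these files. Of 140 genes in 10 lists around glycolysis, 14 were named and measured, and 5 were tested. Of these 5, 2 were lower, 0 were higher and 3 did not pass, beside 17.7% lower and 15.7% higher over all tested loci. So few tested genes cannot be told apart from that background. PDK3, a kinase that switches off pyruvate dehydrogenase, had 8.56 and 9.12 FPKM in the CRYM libraries and 13.3 and 13.6 FPKM in the empty vector libraries, a log2 difference of -0.56 (SE 0.0473, limma adjusted p = 0.0125). RPIA, an isomerase of the pentose phosphate pathway, had 7.98 and 9.13 FPKM in the CRYM libraries and 11.5 and 11.3 FPKM in the empty vector libraries, a log2 difference of -0.38 (SE 0.078, limma adjusted p = 0.0482). Both were the only named member of their list.

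MPC1, a subunit of the carrier that brings pyruvate into mitochondria, had 21.6 and 20.8 FPKM in the CRYM libraries and 21.2 and 21.4 FPKM in the empty vector libraries, and its 95% interval was -0.116 to 0.103 in log2 difference (limma adjusted p = 0.909). The sugar transporter SLC2A12 had 12.2 and 11.9 FPKM in the CRYM libraries and 11.2 and 7.30 FPKM in the empty vector libraries (limma adjusted p = 0.295). The fifth tested gene is ENO1-IT1. No gene of the lists of hypoxia-responsive genes outside glycolysis, of the serine and glycerol branches or of the tricarboxylic acid cycle was named, so these were not analysed here.

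As a check on the labels, the locus taken as CRYM by its neighbours (chr16:21250195-21314404, unnamed in the files) had 65.3 and 72.5 FPKM in the CRYM libraries and 1.17 and 0.977 FPKM in the empty vector libraries. Relative to empty vector library 1, depth was 0.842 and 1.07 in the CRYM libraries and 1.15 in empty vector library 2, and the absolute depth is unknown. The luminal prostate list had 1 named marker of 12, HOXB13, at 110.3 and 114.1 FPKM in the CRYM libraries and 128.4 and 127.7 FPKM in the empty vector libraries, 1.14-fold lower (limma adjusted p = 0.0275). Endothelial CLDN5 had 0.136 to 0.235 FPKM in the CRYM libraries and 0.211 to 0.275 FPKM in the empty vector libraries, and immune HLA-DRA had 1.56 to 1.95 FPKM in the CRYM libraries and 2.29 to 2.40 FPKM in the empty vector libraries. Those were the single named markers of 4 and of 6, and no basal or fibroblast marker was named. The part of these markers, and of depth, in the enzymes' differences was not tested.

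The deposited intervals of the CRYM and empty vector libraries were apart for each of the 8 enzymes, with half-widths of 2.43% to 5.07% of the FPKM. Read as counting error of 2 SD a side, they would imply 2254 to 2279 fragments of TPI1 in the CRYM libraries and 2295 to 2299 in the empty vector libraries, and nearly the same for GAPDH, although depth and FPKM differ. The intervals therefore do not give the reads behind a value. With any 1 library left out (CRYM 1, CRYM 2, empty vector 1 or empty vector 2), limma called 0 of the 8 enzymes and 0 loci in all, with adjusted p of 0.0627 to 0.141 for the enzymes. At an unadjusted p under 0.05 all 8 enzymes passed without CRYM 1, without CRYM 2 or without empty vector 2, and 7 passed without empty vector 1. Each enzyme kept a negative log2 difference, from -1.08 to -1.03 for HK2 and from -0.45 to -0.33 for PKM. On rescaling each library to the same total of the tested loci, 4 of the 8 enzymes passed (HK2, PGAM1, ENO1 and LDHA), while ALDOA, TPI1, GAPDH and PKM did not. Of all 10096 tested loci 664 were then called lower and 741 higher. The log2 differences on that scale were -0.67 for ALDOA, -0.39 for TPI1, -0.42 for GAPDH and -0.36 for PKM, near those without rescaling.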

How the data were processed

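RNA was sequenced in 2 libraries of LNCaP cells with a CRYM vector and 2 with an empty vector. The values deposited by the authors are FPKM per locus, with interval bounds and a status flag, per the file headers. The submitters' processing notes name Cufflinks 2.2.1, Cuffdiff, TopHat2 2.1.1 and Bowtie2 2.2.9, and the builds GRCh37 and hg19, without roles. Use of the strand for FPKM was not given in the sources used here.

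Every library has its own table, and many loci have no gene name. Loci were joined by identical position (52318, of which 37712 had a name in some library, and 27 identifiers on several loci were summed), and the enzymes and listed genes by name or by overlap, which gave 52294 rows. Tests used limma 3.58.1 in R 4.3.3 on log2(FPKM + 1), two-sided, with a trend in the variance prior and Benjamini-Hochberg adjustment. Tested were the 10096 loci that reached 1 FPKM in 2 or more libraries and had status OK in all 4. Status removed 45. The model was first run on simulated data with known changes, drawn as independent normal values with the means and spreads of the tested loci. No shift shared across the loci of a library was simulated, so that run does not bear on such shifts. A fold is a ratio of mean FPKM. Genes named are the 9 enzymes, up to 5 called members of each list or else its 2 highest, the 3 loci nearest to ENO1, the highest processed copies and loci within an enzyme's span. The enzymes, lists and tests were chosen with earlier results of these data known. Alternatives covered the pseudocount, filter, status, scaling, variance prior, join, replicate block and each library left out. Same-numbered libraries deviated from their group means with a correlation of 0.0361 over the loci, and the labels do not tie the numbers to a shared culture. Relative depth came from the most frequent value above 0 at loci 60 bp wide. Each library had 106 to 188 such values, of which 17 to 38 equalled the most frequent one. Python 3.11.15, pandas 2.3.3, numpy 2.4.6 and matplotlib drew and joined the tables. Gene lengths and promoters are from RefSeq on GRCh38.p14, and positions of loci are as the files give them, counted from 1.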

Additional observations from a re-analysis of the deposited data

How the results depend on the processing

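The direction of each of the 8 enzymes was the same under each alternative run, and 0 were called higher in any. All 8 were called lower with a pseudocount of 0.1 or 10, a minimum of 5 FPKM, any status, scaling to the same median, no variance trend, and scaling to the total of the whole file. With the replicate block limma called 0 enzymes, 0 loci lower and 0 higher, with 3825 loci at an unadjusted p under 0.05 and a smallest adjusted p of 0.057. The labels do not say that the numbers pair the samples. Without each library in turn limma called 0 enzymes and 0 loci in either direction in all 4 cases, with 3632 to 3821 loci at an unadjusted p under 0.05. The lone library is then assumed to vary like the other group. Scaling to the same total of the tested loci gave 4 enzymes, 664 loci lower and 741 higher, against 1789 and 1583 as reported. The adjusted p was then 0.0588 for ALDOA, 0.0811 for TPI1, 0.0723 for GAPDH and 0.118 for PKM. Quantile normalization gave 6, with ALDOA at 0.0543 and GAPDH at 0.0759, and 1479 loci lower and 1305 higher. The log2 difference of GAPDH was then -0.27, against -0.46 as reported. Testing without the filter gave 7 enzymes, 1088 loci lower and 790 higher. Named loci and the enzymes alone gave 6 enzymes, with TPI1 at 0.0514 and PKM at 0.0746, and 152 lower and 160 higher among fewer loci tested.

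The 2 alternatives added after the data were examined were the loci of at least 100 FPKM alone, with 349 lower and 82 higher and the 7 enzymes in that range all lower, and scaling to the total of all values in each file. That scaling shifted the median locus by -0.53 and gave 6264 lower and 297 higher, with GAPDH at -1.06, and relative to the median locus the enzymes' median was -0.78 and the weakest -0.48. Of the joins, 6 of 6 enzymes were lower at an overlap of at least 0.8, and 6 of 6 with identical positions. The cause of each change was not tested. With 2 libraries a group and an unknown absolute depth, adjusted p-values near 0.05 are the least firm.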

Other observations

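PGAM1P7, a processed copy of PGAM1 (chrX:46506029-46506765), was listed at 1.09 and 0.887 FPKM in the CRYM libraries and at 0.318 and 0.451 FPKM in the empty vector libraries, while PGAM1 itself was lower in the CRYM libraries. It did not reach the level for testing, so the difference was not tested, and it was chosen after its values were seen. The intervals deposited for PKM would imply 3588 and 3490 fragments in the CRYM libraries and 2317 and 2320 in the empty vector libraries, although its FPKM was lower in the CRYM libraries. For HK2 they would imply 1556 and 1714 fragments in the CRYM libraries and 3344 and 2035 in the empty vector libraries.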
